A study of Salmo salar with 16 samples.

Results

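The genes LOC106586175, annotated as catalase-like, and prdx1, annotated as peroxiredoxin 1, were followed across the spleens of 16 Atlantic salmon on 4 diets, and the question was how far each follows the red cell content of the sample. They were picked by name and are 2 of the 79140 named features in the count tables. Both are also on the study's list of genes that differed between diets in these same fish, so they are not genes drawn without regard to their values. ACJ and ICJ were diets with 40% soybean meal and 5% of the yeast Cyberlindnera jadinii, autolysed in ACJ and heat-inactivated in ICJ. SBM had 40% soybean meal without yeast, and FM was the fishmeal control diet with neither. All fish were small salmon kept in fresh water and fed for 37 days, with 4 fish sequenced per diet. Each sample was a separate animal, but diets were given by tank, from duplicated tanks, and the labels do not say which fish shared one, so that a tank and a diet cannot be told apart.

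Catalase is a heme enzyme that breaks hydrogen peroxide down to water and oxygen, and in most cells it is found in peroxisomes. Peroxiredoxin 1 is a peroxidase of the cytosol that reduces hydrogen peroxide through a reactive cysteine, which thioredoxin then restores. Red cells carry oxygen on hemoglobin, which releases reactive oxygen as it oxidises, and in mammals both enzymes are known as part of the defence of these cells; mice without peroxiredoxin 1 develop a hemolytic anemia. The red cells of fish keep their nucleus and hold messenger RNA, and the spleen of fish stores and clears red cells, so that a spleen sample always contains some.

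On the genome build of the files, ICSASG_v2, LOC106586175 lies on the minus strand of chromosome 2 from 41014705 to 41031208, with 11 exons and 2803 exonic bases. The gene prdx1 lies on the plus strand of the same chromosome from 54487515 to 54491920, with 6 exons and 1192 exonic bases. The annotation holds other copies of both. LOC106564824, also catalase-like, is on chromosome 12 from 27513650 to 27527506, and cata is on chromosome 10 from 58424624 to 58441347. LOC106564567, peroxiredoxin-1-like, is on chromosome 12 from 15508791 to 15515436. Fragments that match several places were not counted, so near-identical copies were counted on their unique parts only and their levels are uncertain to that extent.

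The count tables hold between 5013312 and 9075622 fragments on named genes per fish, and 28929 genes passed the expression filter, all 8 catalase and peroxiredoxin genes among them. The lowest count for either gene of interest was 224, for LOC106586175 in ICJ fish 2. Values below are CPM, counts relative to the size of the library, scaled by TMM, edgeR's correction for composition, and a gene was called where its p from edgeR's quasi-likelihood test, adjusted over all 28929 genes, was below 0.05. Red cell content was read from 17 hemoglobin genes, as their mean log2 CPM in each fish, and is called the hemoglobin measure. Fragments that match several hemoglobin copies were left out here too. The measure and the hemoglobin shares thus rest on uniquely matched fragments only. A bulk sample cannot tell fewer red cells from less hemoglobin RNA per red cell. Most markers of the tissue were in place: the B cell marker cd79b had 111 to 204 CPM, and the macrophage gene c1qb 1278 to 2103 CPM. The macrophage gene marco had at most 0.35 CPM and did not pass the filter. Transcripts of exocrine pancreas, which lies beside the spleen in salmon, summed over 10 genes to between 6.96 and 35701 CPM in single fish. By diet these sums ran from 2002 to 33435 CPM in ACJ, 423 to 23220 CPM in ICJ, 6.96 to 14851 CPM in SBM and 4670 to 35701 CPM in FM. All 10 slopes on the hemoglobin measure were negative, from -2.34 to -1.68, and the median log2 fold change in SBM over FM was -1.78, but none of the 10 was called in either, and their part in the results was not tested.

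The level of LOC106586175 was close to constant in ACJ fish, lowest in SBM fish and spread widely in ICJ and FM fish. It had 94.8, 87.6, 89.5 and 89.0 CPM in ACJ fish 1 to 4. In ICJ fish 1 to 4 the values were 88.1, 37.1, 133 and 165 CPM. In SBM fish they were 63.1, 65.6, 40.9 and 61.4 CPM, and in FM fish 111, 87.5, 208 and 207 CPM. The highest fish of all was thus FM 3 and the lowest ICJ 2, which lay below every SBM fish, and the range over all fish was 5.61-fold. The diet means were 90.2 ± 3.16 CPM in ACJ, 106 ± 55.5 CPM in ICJ, 57.7 ± 11.3 CPM in SBM and 153 ± 63.2 CPM in FM (SD, n = 4 each). In the order FM, ICJ, ACJ, SBM, ICJ and FM fish overlapped, as did ACJ and ICJ fish, while all ACJ fish lay above all SBM fish. Over all genes tested, 2.67% had all ACJ fish above all SBM fish.

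The gene prdx1 showed the same order of diets with a smaller spread. It had 128, 142, 140 and 155 CPM in ACJ fish 1 to 4. The ICJ fish had 132, 76.5, 179 and 212 CPM. The SBM fish had 116, 92.5, 82.0 and 114 CPM, and the FM fish 134, 143, 194 and 231 CPM. The lowest fish was again ICJ 2, the highest was FM 4, and the range was 3.02-fold. Diet means were 141 ± 10.8 CPM in ACJ, 150 ± 58.9 CPM in ICJ, 101.0 ± 16.5 CPM in SBM and 175 ± 45.3 CPM in FM (SD, n = 4 each). Per kilobase of exon, prdx1 had a mean level of 119 ± 37.0 CPM over the 16 fish and LOC106586175 one of 36.3 ± 18.6 CPM (SD, n = 16). On that scale 98.1% of the genes tested had a lower mean than prdx1, and 93.7% a lower mean than LOC106586175.

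The share of counts on hemoglobin genes followed the same pattern over the fish. It was 3.28, 3.68, 3.73 and 3.64% in ACJ fish 1 to 4, and 3.17, 1.39, 4.54 and 6.06% in ICJ fish 1 to 4. It was 2.75, 2.33, 1.53 and 2.68% in SBM fish, and 3.23, 3.94, 5.60 and 6.64% in FM fish. Fish ICJ 2 and SBM 3 were lowest in hemoglobin and in both genes, and fish ICJ 4, FM 3 and FM 4 were highest in all 3 measures. The ICJ fish stood in the order 2, 1, 3, 4 in hemoglobin, in LOC106586175 and in prdx1. In the other diets the order of LOC106586175 did not match that of hemoglobin. It was highest in ACJ fish 1, the lowest ACJ fish in hemoglobin, and in SBM fish 2, below SBM fish 1 and 4 in hemoglobin. FM fish 1 had more of it than FM fish 2, with less hemoglobin. The order of prdx1 matched that of hemoglobin in SBM and FM fish, but not in ACJ fish. The ACJ fish, which barely differed in hemoglobin, barely differed in either gene.

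**Figure D1:**
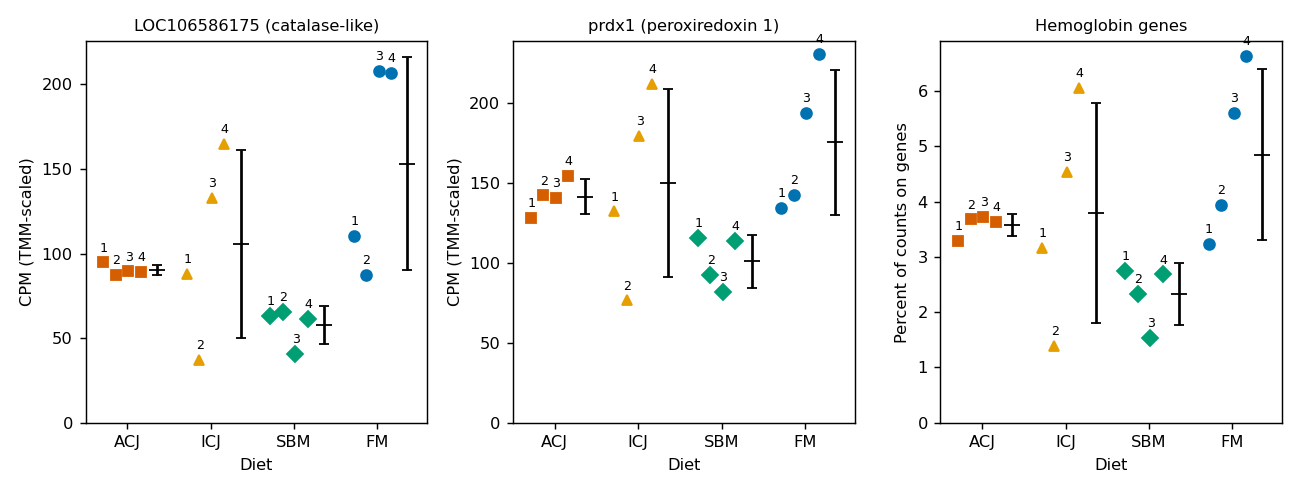
Levels in every fish by diet, with CPM of LOC106586175 on the left, CPM of prdx1 in the middle and the percent of counts on hemoglobin genes on the right; points are single fish numbered by replicate, and bars give the mean and SD of 4 fish. In all 3 panels the ACJ fish lie close together, ICJ fish 2 is lowest of all, and the 4 SBM fish lie below the 4 FM fish. Over all genes tested, 4.15% had all SBM fish below all FM fish.

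Across the 16 fish both genes followed the hemoglobin measure closely. For LOC106586175 Pearson's r of log2 CPM with it was 0.98 and Spearman's rho 0.89 (n = 16), each with a permutation p of 1e-05, the smallest that 100000 permutations can give. For prdx1 both r and rho were 0.98, with the same permutation p. Adjusted over the 12 correlations of the family, these p were 2.4e-05 for r and 4e-05 for rho. Without ICJ 2 and SBM 3, the fish farthest from the median of the measure, r was 0.96 for both genes. With the diet means taken out, so that only differences between fish of one diet remained, r was 0.97 for LOC106586175 (exact permutation within diets, p = 0.00168, adjusted p = 0.00222) and 0.97 for prdx1 (exact p = 9.65e-05, adjusted p = 0.000171). Without ICJ 2 and ICJ 4, the fish farthest from their diet's mean, these values were 0.93 and 0.94, with exact p of 0.0201 and 0.00116. Fish of one diet came from duplicated tanks, so differences within a diet may include tank differences. Neither these tests nor the slopes below allow for them.

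The relation was also seen without hemoglobin genes. A second measure of red cells, the mean log2 CPM of 12 other red cell genes such as band 3, Rh proteins, alas2 and erythrocytic spectrin, gave r of 0.95 with LOC106586175 and 0.97 with prdx1, and 0.92 and 0.96 with the diet means taken out. The permutation p of these were at most 0.00275, and at most 0.003 after adjustment. Most of these 12 genes are on the study's list of genes that differed between diets in these same fish. So are most of the hemoglobin genes and both genes of interest, and the correlations over all fish are partly set by that choice. The 2 genes also followed each other, with r of 0.96 over all fish and 0.94 around the diet means (adjusted p of 2.4e-05 and 0.00222, permutation tests). Spearman's rho was between 0.84 and 0.98 in these relations. Without the 2 fish farthest from the median, r with the other red cell genes was 0.92 for LOC106586175 and 0.98 for prdx1 over all fish, and 0.85 and 0.94 around the diet means, and r between the 2 genes was 0.93 and 0.84. The weakest of these had an exact permutation p of 0.0401. These correlations share libraries and scaling factors.

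The hemoglobin measure was then added as a further term to the model of diet means. In that model the slope of LOC106586175 was 0.95 ± 0.072 log2 units per log2 unit of the measure (SE, n = 16), with an adjusted p of 9.75e-08 by edgeR's quasi-likelihood test. The slope of prdx1 was 0.64 ± 0.050 (SE), with an adjusted p of 1.45e-07. Of all genes tested 2.15% had a called slope and 1.96% a positive one, and ranked by p LOC106586175 was number 25 and prdx1 number 29. A slope of 1 means that a gene doubles for each unit of the measure, which weighs all 17 hemoglobin genes alike. The 95% interval for LOC106586175 ran from 0.80 to 1.10 and held 1, while that for prdx1 ran from 0.54 to 0.75 and did not. For each unit of the measure LOC106586175 was thus 1.93-fold (95% interval 1.74 to 2.15) and prdx1 1.56-fold (1.45 to 1.68) as high.

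**Figure D2:**
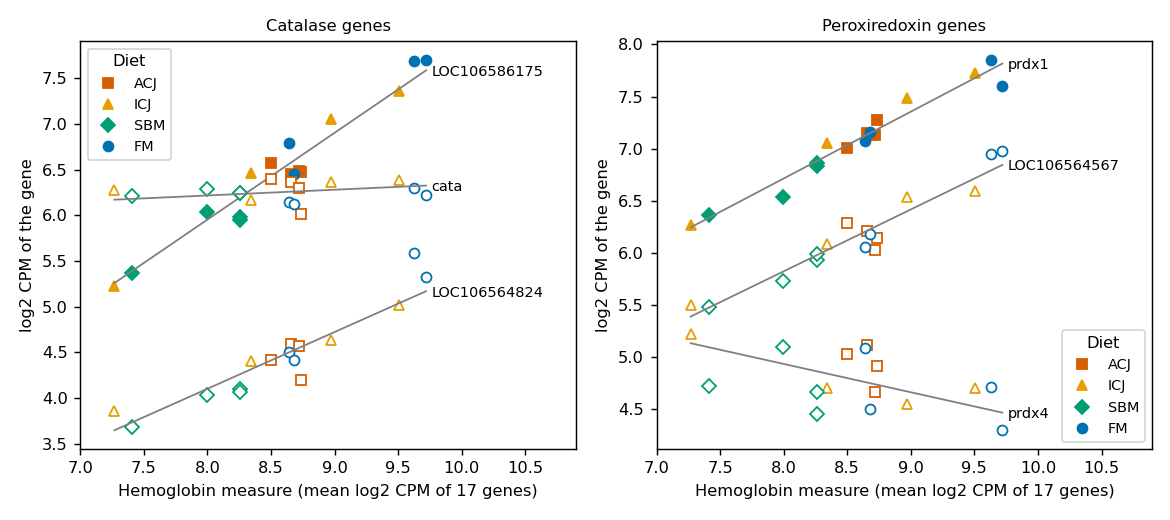
log2 CPM of catalase genes (left) and peroxiredoxin genes (right) against the hemoglobin measure in 16 fish, with filled points for LOC106586175 and prdx1, open points for other genes, and lines drawn with the slope fitted within diets. LOC106586175 and prdx1 rise over the whole range, with slopes of 0.95 and 0.64, while cata stays level at a slope of 0.06.

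LOC106586175 was the steeper gene. Its log2 CPM minus that of prdx1 rose with the hemoglobin measure, with a slope of 0.37 and r of 0.82 (n = 16, permutation p = 0.0001, adjusted p = 0.000171) and rho of 0.71 (adjusted p = 0.00351). Around the diet means the slope of this difference was 0.31 and r 0.72 (exact permutation within diets, p = 0.0149, adjusted p = 0.0149), while rho of 0.58 did not pass (exact p = 0.0529). Without ICJ 2 and ICJ 4 the value of r around the diet means was 0.55 and did not pass either (exact p = 0.153), while the slope of the difference was again 0.31. Over all fish, without ICJ 2 and SBM 3, r was 0.73 (permutation p = 0.00313).

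Most genes known from red cells had slopes around that of LOC106586175. Of the 17 hemoglobin genes, 16 had a called positive slope, and their median was 0.94. These 17 genes make up the measure, so their positive slopes were built in and are no separate evidence. The 3 with the most counts, LOC106607372, LOC100136576 and LOC106607375, had slopes of 0.89, 0.92 and 0.86. Of the 12 other red cell genes, 11 had a called positive slope and the median was 0.96. Among them were alas2, the erythroid enzyme that starts heme synthesis, at 0.85, and cahz, a carbonic anhydrase, at 1.04. Band 3, the anion exchanger of the red cell membrane, had a slope of 1.04 for LOC100380859 and 1.16 for LOC106606869, and LOC106571195, an ammonium transporter of the Rh family, had 0.95. The exception, LOC106566514, is named ank1b and had a mean of 2.80 CPM and an uncalled slope of -0.90 (adjusted p = 0.0878). The 11 called genes are on the study's list of genes that differed between diets in these fish, and LOC106566514 is not. The slope of prdx1 lay below those of all 16 called hemoglobin genes and all 11 called other red cell genes, the lowest of which was 0.75 for LOC106601051, a hemoglobin beta-like gene. No test of prdx1 against each of them was made. Of both lists, only the uncalled LOC106566514 had a slope below that of prdx1.

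The low slope of prdx1 can be set beside its copy. LOC106564567 had 77.7, 73.5, 65.1 and 70.3 CPM in ACJ fish and 67.6, 44.9, 92.4 and 96.5 CPM in ICJ fish. It had 60.8, 52.6, 44.4 and 63.4 CPM in SBM fish and 66.4, 72.1, 126 and 123.2 CPM in FM fish, again lowest in SBM 3 and ICJ 2 and highest in FM 3 and FM 4. Its slope was 0.59 ± 0.064 (SE, adjusted p = 9.28e-06, edgeR), and its mean level per kilobase, 68.6 ± 22.0 CPM (SD, n = 16), was below the 119 CPM of prdx1. The difference of the 2 copies in log2 CPM had an r of 0.18 with the hemoglobin measure (permutation p = 0.514), and a slope of 0.04. This comparison, like the other comparisons between copies, was chosen after the values were seen, and the 6 tests of that kind were adjusted together (adjusted p = 0.533).

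The other peroxiredoxin genes did not have a called slope. Unlike prdx1 and LOC106564567, they are not on the study's list of genes that differed between diets in these fish. The gene prdx3, whose protein works in mitochondria, had a slope of -0.01 (95% interval -0.19 to 0.18) at 17.5 CPM. The gene prdx6, whose protein needs glutathione instead of thioredoxin, had -0.07 (-0.32 to 0.17) at 9.94 CPM. For prdx4, whose protein sits in the endoplasmic reticulum, the slope was -0.27 (-0.48 to -0.06) at 27.6 CPM, with an adjusted p of 0.238. The whole range of prdx4 over the fish was 19.4 to 36.9 CPM.

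The catalase copies differed from each other. LOC106586175 and LOC106564824 are on the study's list of genes that differed between diets in these fish, and cata is not. The gene cata kept between 64.5 and 83.9 CPM in all 16 fish, a range of 1.30-fold. It averaged 77.3 ± 8.84 CPM in ACJ, 78.7 ± 5.31 CPM in ICJ, 75.6 ± 1.63 CPM in SBM and 73.4 ± 4.12 CPM in FM (SD, n = 4 each), and all diets overlapped. In ICJ fish 2, where LOC106586175 was at its lowest, cata had 77.5 CPM, and in FM fish 3, where LOC106586175 was highest, it had 74.6 CPM. Its slope was 0.06 ± 0.053 (SE, adjusted p = 0.705), with a 95% interval from -0.05 to 0.18. The difference of LOC106586175 and cata in log2 CPM rose with the hemoglobin measure with a slope of 0.99 and r of 0.97 (n = 16, permutation p = 1e-05, adjusted p = 6e-05), and around the diet means with r of 0.96 (exact p = 0.000687, adjusted p = 0.00137). Per kilobase the level of LOC106586175 was 13.2 CPM in ICJ fish 2, below the 22.3 CPM of cata, and 74.3 CPM in FM fish 3, above the 21.5 CPM of cata.

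LOC106564824, the other catalase-like gene, had a slope between those of LOC106586175 and cata, and a lower level than either. It had 21.1, 23.7, 23.5 and 18.1 CPM in ACJ fish and 20.9, 14.2, 24.6 and 32.1 CPM in ICJ fish. It had 16.8, 16.04, 12.5 and 16.4 CPM in SBM fish and 22.3, 21.1, 39.8 and 47.7 CPM in FM fish, so all SBM fish lay below all FM and ACJ fish. Over all genes tested, all SBM fish lay below all FM fish for 4.15% and below all ACJ fish for 2.67%. Its slope was 0.62 ± 0.088 (SE, adjusted p = 0.000221, edgeR) and its mean level per kilobase 8.22 ± 3.34 CPM (SD, n = 16). LOC106586175 was steeper than LOC106564824, with r of 0.80 for the difference against the hemoglobin measure (permutation p = 0.00017, adjusted p = 0.00051) and 0.75 around the diet means (exact p = 0.0211, adjusted p = 0.0316). Around the diet means r was 0.42 without ICJ 2 and ICJ 4 (exact p = 0.163) and did not pass.

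**Figure D3:**
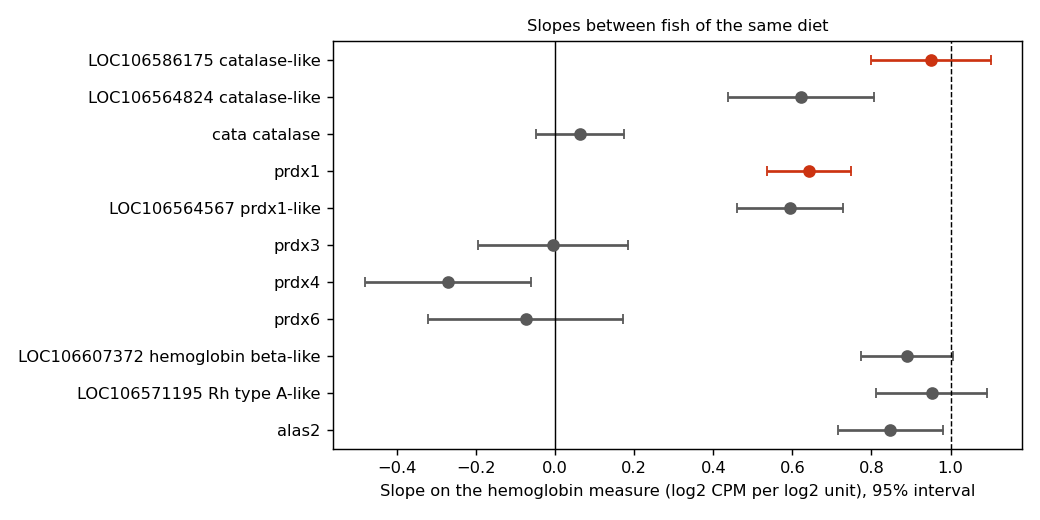
Slopes on the hemoglobin measure in log2 CPM per log2 unit, from the model with diet means, with 95% intervals for 11 genes; LOC106586175 and prdx1 are in red and the dashed line marks a slope of 1. Of the catalase and peroxiredoxin genes, 4 lie well above 0 (0.95, 0.64, 0.62 and 0.59), and cata, prdx3, prdx4 and prdx6 lie between -0.27 and 0.06. The former are on the study's list of genes that differed between diets in these fish, and the latter are not.

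Other enzymes of the same chemistry were read beside them. With 2.15% of all genes called, lists of these sizes would hold few called genes at the overall share, so the counts say little by themselves. Of 5 genes for glutathione peroxidases, which also remove peroxides, none had a called slope, and the slopes of the 3 with the most counts were 0.05 for LOC106566059 (gpx1a), -0.02 for LOC106573579 (gpx4a) and -1.37 for LOC106612297 (gpx3). Of 16 redox partners, such as superoxide dismutases, thioredoxin reductase and genes of glutathione synthesis, none was called, and the median slope was 0.02. The 3 with the most counts were LOC106586247 (nfe2l2a) at 0.01, sod1, which makes hydrogen peroxide from superoxide, at 0.05, and nf2l2 at 0.13. The slope of srxn1, the enzyme that repairs overoxidised peroxiredoxins, was -0.23 (adjusted p = 0.394). Of 21 peroxisome genes none was called and the median slope was 0.01, with scp2 at 0.02, hsd17b4 at -0.10 and pex14 at -0.04. Over all genes tested the median slope was 0.00, and 3458 genes had an unadjusted p below 0.05.

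Markers of other spleen cells were read beside these slopes. No T cell (6 genes), macrophage or dendritic cell (5), granulocyte (2) or B cell (1) marker tested had a called slope. With 2.15% of all genes called, so few markers would hold few called genes at that share, and this count says little by itself. Of 3 thrombocyte genes, 2 did, LOC106600877 (integrin alpha-IIb-like) with 0.46 (adjusted p = 0.00432) and LOC106571903 (platelet glycoprotein IX-like) with 0.61 (adjusted p = 0.000499), and the third, LOC106581936 (f5), had -1.48 (adjusted p = 0.391). None of the 3 was at 0 in any fish. Their summed level ranged from 250 to 344 CPM in ACJ fish, 169 to 314 CPM in ICJ fish, 168 to 248 CPM in SBM fish and 276 to 452 CPM in FM fish. These 2 genes thus moved with the hemoglobin measure in these samples, and the part of thrombocytes in the levels of LOC106586175 and prdx1 was not tested. Of the 6 hepatocyte markers, serum albumin (alb1) had a median of 0 CPM and a highest value of 8.33 CPM, and trf reached 12.7 CPM. The 2 that passed the filter, trf and LOC106602564, had uncalled slopes of -2.44 and -1.37 (adjusted p = 0.164 and 0.347, edgeR).

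The genes whose log2 CPM was most like that of each gene over the 16 fish are given as a description. For LOC106586175 they were fam65c (r = 0.98), pdzd7 (0.98), addb, which encodes the membrane skeleton protein beta-adducin (0.98), LOC106575454, WW domain-binding protein 4-like (0.97), and gata1, a transcription factor gene (0.97). Of 28928 other genes prdx1 ranked 36th by r, LOC106564567 ranked 16th and cata 8793rd. For prdx1 the most alike genes were LOC106607373, a hemoglobin alpha-like gene (r = 0.99), LOC100136576, beta globin (0.99), LOC106601078, hemoglobin alpha-like (0.98), LOC106607372, hemoglobin beta-like (0.98), and LOC106606869, band 3 (0.98). LOC106586175 ranked 32nd in that list. Of the 100 genes most like LOC106586175, 8 were hemoglobin genes and 9 other red cell genes, and for prdx1 these numbers were 10 and 10. The lists hold 17 and 12 of the 28929 genes tested. Most genes of both lists and both genes of interest are on the study's list of genes that differed between diets. These counts are therefore partly set by that choice.

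The diets were compared next, first without regard to red cells. In SBM over FM, LOC106586175 was at 0.38-fold, a log2 fold change of -1.41 ± 0.40 (SE, n = 4 per diet), and every SBM fish lay below every FM fish. Its unadjusted p was 0.00382, and its adjusted p of 0.134 by edgeR's quasi-likelihood test did not pass. The same comparison for prdx1 gave 0.58-fold, -0.79 ± 0.26 (SE), again without overlap and with an adjusted p of 0.18. In this comparison 0.432% of all genes were called, and 4.15% of genes had all SBM fish below all FM fish. DESeq2 called both genes, with adjusted p of 0.0218 for LOC106586175 and 0.0321 for prdx1, and edgeR's likelihood ratio test called LOC106586175 (adjusted p = 0.0153). In the other settings without a red cell covariate the adjusted p in SBM over FM was at most 0.32 for LOC106586175 and 0.376 for prdx1. The call thus depends on the test, while the direction without overlap is in the values themselves. Both genes are on the study's list of genes that differed between diets in these fish, so this is no independent evidence of a difference. The exact permutation test of 4 fish against 4 gave its smallest possible p, 0.0286, for both genes (adjusted p = 0.0857 over 18 tests).

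The hemoglobin genes and other red cell genes were lower in the same comparison. The hemoglobin measure averaged 7.98 ± 0.40 in SBM and 9.17 ± 0.59 in FM (SD, n = 4 each), again without overlap (exact permutation p = 0.0286, adjusted p = 0.0857). The median log2 fold change in SBM over FM was -1.19 over the 17 hemoglobin genes and -1.34 over the 12 other red cell genes, against -0.01 over all genes tested, and none of the genes on either list was called. Most genes of both lists are on the study's list of genes that differed between diets in these same fish. Both medians and the level of the measure between diets are therefore partly set by that choice. They are no independent evidence of direction. With the hemoglobin measure in the model, the SBM over FM value of LOC106586175 was -0.21 ± 0.13 (SE, 95% interval -0.48 to 0.07, adjusted p = 0.832), and that of prdx1 was -0.02 ± 0.093 (SE, -0.21 to 0.18, adjusted p = 0.993). The highest SBM fish had a hemoglobin measure of 8.26 and the lowest FM fish one of 8.64, so no SBM and FM fish shared a value, and the model carries the slope from all diets across that gap. An SBM effect at equal red cell content was therefore not observed directly in any pair of fish.

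The yeast diets were compared with FM and SBM in the same way. In ICJ over FM, LOC106586175 had -0.53 ± 0.39 and prdx1 -0.22 ± 0.26 (SE), with overlapping fish and adjusted p of 0.717 and 0.833 by edgeR, where 0.0104% of genes were called. In ACJ over FM the values were -0.76 ± 0.39 and -0.31 ± 0.26 (SE), with adjusted p of 0.387 and 0.627, where 0.235% of genes were called. In ICJ over SBM they were 0.87 ± 0.39 and 0.57 ± 0.26 (SE), both with adjusted p of 0.967 and with ICJ fish 2 lowest of the 8. In ACJ over SBM both genes were higher in every ACJ fish than in any SBM fish. The values were 0.64 ± 0.39 for LOC106586175 and 0.48 ± 0.26 for prdx1 (SE), with adjusted p of 0.773 and 0.75 by edgeR. The exact permutation p was the smallest possible, 0.0286, for each gene (adjusted p = 0.0857 over 18 tests). The hemoglobin measure was also higher in every ACJ fish than in any SBM fish, with the same exact permutation p and adjusted p. All ACJ fish lay above all SBM fish for 2.67% of genes. In ACJ over ICJ the values were -0.23 ± 0.39 and -0.09 ± 0.26 (SE), with 95% intervals from -1.08 to 0.62 and from -0.65 to 0.48, and adjusted p of 0.967 and 0.986. In these last 3 comparisons edgeR's quasi-likelihood test called none of the genes tested, although 1445, 1995 and 1639 genes had an unadjusted p below 0.05 in ICJ over SBM, ACJ over SBM and ACJ over ICJ, and DESeq2 called 4, 6 and 6.

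With the hemoglobin measure in the model, all 12 values were smaller in size. This follows from the slopes given above and the differences in the measure between diets, and is no separate evidence. Whether red cell content accounts for the diet values was not tested. For LOC106586175 they were -0.02 in ICJ over FM, -0.18 in ACJ over FM, 0.18 in ICJ over SBM, 0.03 in ACJ over SBM and -0.15 in ACJ over ICJ. For prdx1 they were 0.12 and 0.05 in ICJ and ACJ over FM, 0.14 and 0.06 in ICJ and ACJ over SBM, and -0.07 in ACJ over ICJ. The values of prdx1 in ICJ over FM and ACJ over FM changed sign. The lowest adjusted p of the 12 was 0.536 (edgeR). Standard errors in these fits were between 0.072 and 0.13, against 0.26 to 0.40 without it. The highest SBM fish had a hemoglobin measure of 8.26 and the lowest ACJ fish one of 8.50. The values in ACJ over SBM were thus also carried across a gap, and no ACJ and SBM fish were compared at equal hemoglobin. The comparisons that share FM or SBM fish are not independent of each other.

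**Figure D4:**
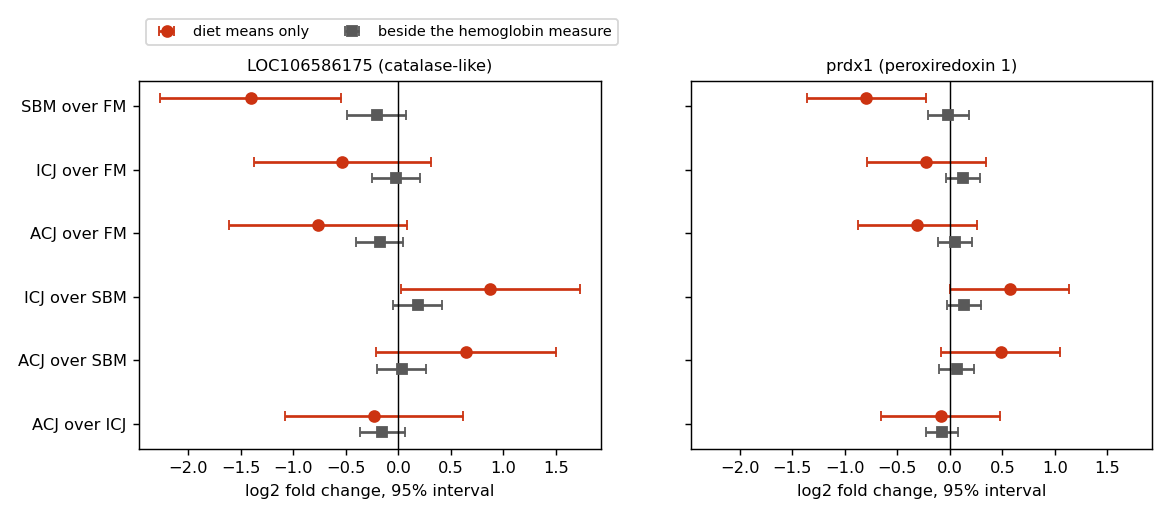
log2 fold changes of LOC106586175 (left) and prdx1 (right) in the 6 diet comparisons, with 95% intervals, from the model with diet means only (red circles) and with the hemoglobin measure added (grey squares). In SBM over FM the value for LOC106586175 is -1.41 without and -0.21 with the measure, that for prdx1 is -0.79 and -0.02, and all 12 grey intervals include 0.

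One hemoglobin gene weighs on the measure in a single fish. The gene hba had 60.5 CPM in FM fish 3 and at most 6.33 CPM in any other fish, and its own slope was 3.11, far above those of the other hemoglobin genes. With hba left out of the measure, the slope was 0.998 for LOC106586175 and 0.68 for prdx1, and with the log2 of the summed hemoglobin CPM it was 1.02 and 0.70, all called (adjusted p at most 1.43e-06, edgeR). As covariates, these readings left more of the ACJ over FM value of LOC106586175. It was -0.22 ± 0.11 without hba and -0.30 ± 0.12 with the summed CPM, against -0.18 ± 0.11 with the hemoglobin measure (SE). Neither was called (adjusted p = 0.444 and 0.291, edgeR). The same values of prdx1 were 0.03 and -0.02. These readings were chosen after the data were seen.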

How the data were processed

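Spleen RNA of 16 fish, 4 per diet, was sequenced by the authors with a stranded paired-end mRNA protocol. The authors trimmed the reads, aligned them to ICSASG_v2 with HISAT2 2.1.0 and counted fragments per gene with featureCounts, which is version 1.4.6-p1 in the submitters' processing notes and 1.5.1 per the file headers. The deposited values are raw counts for 79141 features per fish, counted on the reverse strand, without fragments that match several places or genes. A row without a gene name, 0.205 to 0.475% of counts, was removed. Groups and replicate numbers came from the sample titles, and same-numbered fish are different animals. For most fish the headers carry a library number other than the replicate number, and fish are numbered here by their titles.

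Counts were filtered with filterByExpr by diet and scaled by TMM (edgeR 4.0.16, R 4.3.3). All fish were fitted in one quasi-likelihood model with robust estimation and a mean per diet, and for slopes also with the hemoglobin measure, which used a prior count of 2 in log2 CPM. The p-values were adjusted by Benjamini-Hochberg over 28929 genes, with a threshold of 0.05. The SE of a log2 fold change or slope was its size divided by the square root of F, and intervals cover 95%. Correlations were tested with 100000 permutations, or exactly with 331776 permutations within diets (Python 3.11.15, SciPy 1.17.1), and 12 were adjusted together. Only edgeR's tests of SBM over FM and of the slope were checked on simulated counts, drawn with the same spread for all genes. The permutation tests were not checked in this way.

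Genes were named from symbols in the tables, from RefSeq's gene table (39388 features) and from the study's supplementary gene list (1053 features). That list holds genes that differed between diets in these fish. Among them are most hemoglobin genes, most other red cell genes and both genes of interest. None of its values was used. Chromosome numbers were assigned through RefSeq's table, for which the lowest agreement on a sequence was 86.54% of its genes. The named genes are LOC106586175 and prdx1, all genes named catalase or peroxiredoxin, the 5 most alike for each of LOC106586175 and prdx1, the 3 with the most counts in each gene list, and alas2, LOC100380859 and LOC106571195. Other names were chosen after their values were seen. The genes of interest, the lists and the tests were all chosen with earlier results of these data known.

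The alternatives tried were DESeq2 1.42.0, edgeR's likelihood ratio test with at least 1 CPM in 4 fish, RLE scaling, no filter, a replicate block, removal of hemoglobin genes, the 8 compared fish alone, red cell measures as covariates, slopes without diet terms and leaving out each fish.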

Additional observations from a re-analysis of the deposited data

Results flagged for a closer look

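Of 40 groups of 4 fish examined, which took 8 catalase and peroxiredoxin genes, the percent of counts on hemoglobin and the hemoglobin measure in each diet, 1 held a fish far from the other 3. LOC106564824 had 12.5 CPM in SBM fish 3, against 16.04 to 16.8 CPM in the other SBM fish, and the gap was 0.83 of the whole range. Chance flags about 1 in 20 such groups. SBM fish 3 also had the lowest hemoglobin share among SBM fish.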

How the results depend on the processing

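The slopes of LOC106586175 and prdx1 on red cell content kept their sign and call under all 25 alternatives each. Leaving out 1 fish gave slopes of 0.87 to 0.99 for LOC106586175 and 0.59 to 0.67 for prdx1, correlations of 0.969 to 0.979 and 0.970 to 0.986, and a difference of slopes of 0.32 to 0.40. The other red cell measure gave slopes of 1.05 and 0.74. The difference of slopes lost its call around the diet means without the 2 farthest fish (permutation p = 0.153), where its size was still 0.31.

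In SBM over FM, LOC106586175 was called by DESeq2 (-1.41, adjusted p = 0.0218) and by edgeR's likelihood ratio test (-1.41, adjusted p = 0.0153), and prdx1 by DESeq2 (-0.79, adjusted p = 0.0321). Over all alternatives the adjusted p ranged from 0.0153 to 0.94 for LOC106586175 and from 0.0321 to 0.999 for prdx1, with the highest values from fits with a red cell covariate. No other diet comparison of either gene was called under any alternative. Leaving out 1 fish gave -1.60 to -1.22 and -0.90 to -0.63 in SBM over FM, and -0.51 to 0.06 and -0.30 to 0.13 in ACJ over ICJ, where LOC106586175 reversed without ICJ 4 (0.0646) and prdx1 without ICJ 3 (0.0094) and without ICJ 4 (0.13). The other sign changes of uncalled values came with red cell covariates. For prdx1 they were 0.12 and 0.0475 in ICJ over FM and ACJ over FM with the hemoglobin measure, and 0.00596, 0.14 and 0.10 in SBM, ICJ and ACJ over FM with the other red cell measure. Leaving hba out gave prdx1 0.13 and 0.0289 in ICJ and ACJ over FM, and LOC106586175 -0.00505 in ACJ over SBM. The summed hemoglobin CPM gave prdx1 0.0195 in SBM over FM, 0.0845 in ICJ over FM and -0.035 in ACJ over SBM, and LOC106586175 -0.10 in ACJ over SBM. The cause of the changes was not tested.

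Counts of called genes depended more on the setting. In SBM over FM, 125 genes were called, 719 by DESeq2, 552 by the likelihood ratio test, 38 with the 8 fish alone, 1 with the hemoglobin measure as covariate, and 5 (without FM 4) to 670 (without FM 1) with 1 fish left out. In ACJ over FM, 68 were called, 485 by DESeq2, 321 by the likelihood ratio test, 127 with no filter, 4 with the hemoglobin measure, 4 with the 8 fish alone and 2 (without ACJ 1) to 550 (without FM 1) with 1 fish left out. In ICJ over FM the count was 3, 94 by DESeq2, 22 by the likelihood ratio test and 0 to 37 with 1 fish left out. For the slope it was 622, 1610 without diet terms and 337 (without ICJ 2) to 737 (without FM 2) with 1 fish left out. Same-numbered fish did not deviate together (r from -0.21 to 0.30), and with a replicate block the slopes were 0.98 and 0.59, SBM over FM was -1.30 and -0.76, and 110 genes were called in SBM over FM, 0 in ICJ over FM, 39 in ACJ over FM and 293 for the slope.

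With 4 fish per diet, the 95% interval of a diet comparison reached 0.84 to 0.86 log2 units to each side for LOC106586175 and 0.56 to 0.57 for prdx1. Larger differences also went uncalled, such as -1.41 and -0.79 in SBM over FM.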
